A study of Mus musculus with 6 samples.

Results

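Myelin sheath genes, 9 of the 53060 genes in the table, were followed through the RNA-seq of *Armc5* KO and WT neural progenitor cells (NPCs): *Cnp*, *Ugt8a*, *Myrf*, *Mbp*, *Cldn11*, *Mag*, *Mobp*, *Mal* and *Mog*. They were picked by gene symbol, and each symbol matched 1 locus that names no other gene. The choice was made with the counts of all 6 libraries known, so the KO and WT levels of these genes are a description and are read with no test. Of the 9 genes, 8 passed the filter on low counts and *Mog* did not, and levels of all 9 are given.

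The KO NPCs were *Armc5*(-/-) and the WT NPCs carried intact *Armc5*, and the labels give both groups the strain 129 sv X CD1, whereas the methods of the study name a CD1 x C57BL/6 F1 background. By the methods of the study, all cultures came from ganglionic eminences of e13.5 fetuses, whereas its results name brains and spinal cords. The cultures were grown as neurospheres in a medium that held 20 ng/ml epidermal growth factor, and neurospheres of passage 2 were used. Each group had 3 libraries, KO NPC 1 to 3 and WT NPC 1 to 3, and the study describes its KO and WT cultures as biological replicate pairs. Not given in the sources used here is whether 1 fetus or several gave a culture, and a neurosphere is a mixed ball of cells rather than a sorted type.

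Myelin is the layered membrane that oligodendrocytes wrap around axons of the central nervous system. Progenitors of the ganglionic eminences give rise to oligodendrocyte precursors, which divide, leave the cell cycle and then switch on the genes of the sheath under transcription factors that include SOX10 and MYRF. Genes such as *Cnp* and *Ugt8a* come on early in that course, while *Mog* marks its late end.

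The windows around the transcription start of 4 of the genes are shown because they hold letters that SOX10 and MYRF are known to bind. Windows of 300 bases, 250 before the start and 50 after it, were taken from a table of RefSeq starts on GRCm38.p6, in which 7 of the 9 genes were matched, and *Mbp* and *Myrf* were not analysed here. Capitals mark the SOX core ACAAAG, read on both strands (CTTTGT on the other), and the MYRF motif CTGGCAC or CTGGTAC, also read on both strands (GTGCCAG or GTACCAG on the other). The 4 windows are those of *Mag* at chr7:30914814-30915113 on the minus strand, *Mobp* at chr9:120149492-120149791 on the plus strand, *Cnp* at chr11:100574689-100574988 on the plus strand and *Mog* at chr17:37023349-37023648 on the minus strand.
Mag: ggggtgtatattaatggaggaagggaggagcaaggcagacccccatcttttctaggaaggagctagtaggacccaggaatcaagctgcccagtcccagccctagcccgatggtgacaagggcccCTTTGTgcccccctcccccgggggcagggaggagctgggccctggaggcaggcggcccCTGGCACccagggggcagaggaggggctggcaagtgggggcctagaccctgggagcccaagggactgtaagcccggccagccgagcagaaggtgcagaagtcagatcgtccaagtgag
Mobp: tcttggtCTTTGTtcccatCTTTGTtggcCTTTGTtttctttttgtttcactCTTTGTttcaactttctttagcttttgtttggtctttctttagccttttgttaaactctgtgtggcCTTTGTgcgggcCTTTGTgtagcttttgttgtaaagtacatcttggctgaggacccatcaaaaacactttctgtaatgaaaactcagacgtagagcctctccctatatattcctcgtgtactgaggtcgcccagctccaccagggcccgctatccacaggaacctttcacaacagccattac
Cnp: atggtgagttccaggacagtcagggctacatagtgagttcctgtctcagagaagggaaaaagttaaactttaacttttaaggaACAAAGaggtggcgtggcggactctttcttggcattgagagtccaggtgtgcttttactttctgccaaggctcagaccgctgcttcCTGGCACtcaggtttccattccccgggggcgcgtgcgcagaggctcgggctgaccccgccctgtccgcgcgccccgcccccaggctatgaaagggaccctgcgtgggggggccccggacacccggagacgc
Mog: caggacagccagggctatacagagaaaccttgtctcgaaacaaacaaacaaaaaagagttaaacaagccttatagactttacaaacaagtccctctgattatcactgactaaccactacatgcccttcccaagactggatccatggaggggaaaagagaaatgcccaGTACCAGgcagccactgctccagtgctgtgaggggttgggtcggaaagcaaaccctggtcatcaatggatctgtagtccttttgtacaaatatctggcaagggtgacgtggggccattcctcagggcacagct
The *Mag* window is that of the first of its 3 RefSeq starts.

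In the *Cnp* window the SOX core began 167 bases before the start and the MYRF motif 81 bases before it. *Mag* had the same pair of motifs, at 126 and 68 bases before the start. The *Mog* window held a MYRF motif at 83 bases before the start and no SOX core, and that of *Mobp* held 6 SOX cores and no MYRF motif. Neither motif was in the windows of *Cldn11*, *Ugt8a* and *Mal*. Each motif was thus in a window of 3 of the 7 genes. Counted by window this was 4 of their 9 windows, where overlapping *Mag* windows hold the same letters. Of all 32851 RefSeq windows of this length 18.7% held a SOX core and 7.10% a MYRF motif. At least 6 SOX cores, a count set by *Mobp* itself, were in 0.00304% of all windows. These matches describe letters and say nothing of binding in these cells.

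**Figure D1:**
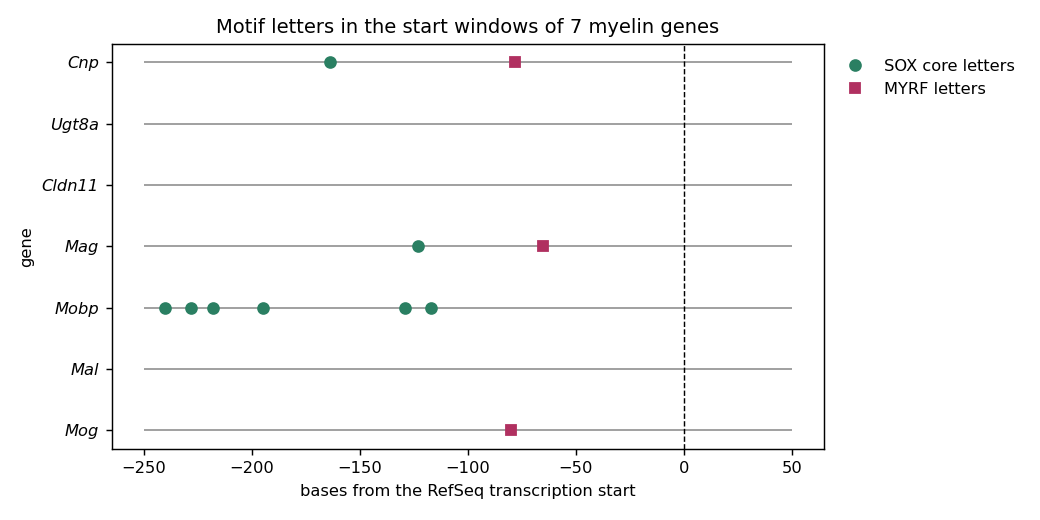
Positions of the SOX core (circles) and the MYRF motif (squares) in the 300-base windows of the 7 myelin genes analysed, in bases from the transcription start (dashed line); each marker stands near the middle of its motif, and the first listed start is drawn. *Cnp* and *Mag* have 1 of each, *Mobp* has 6 SOX cores, *Mog* has 1 MYRF motif, and *Ugt8a*, *Cldn11* and *Mal* have none.

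The 6 libraries held between 52995791 and 85170379 counts at loci that name a gene, with the fewest in KO NPC 3. *Armc5*, the deleted gene, was at 0.730 to 1.64 CPM (the count scaled to sequencing depth, here on TMM-scaled library sizes) in the KO NPCs and at 26.2 to 31.2 CPM in the WT NPCs, as the labels require. The merged locus that names the progenitor gene *Sox2*, together with *Sox2ot* and others, had counts in all libraries, at 548 to 812 CPM in the KO NPCs and at 536 to 626 CPM in the WT NPCs. KO NPC 3 stood apart from the other 5 libraries: the proliferation gene *Mki67* was at 31.1 CPM there and between 764 and 1011 CPM elsewhere, and *Nes*, the progenitor intermediate filament, was at 75.9 CPM there and between 356 and 484 CPM elsewhere. Because this library carries much of what follows, the log2 fold changes of the myelin genes and the medians of the gene lists are given with and without it. In bulk RNA, more cells of a type and more RNA per cell cannot be told apart.

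The myelin genes together took 10895, 32507 and 116735 counts in KO NPC 1, 2 and 3, against 8465, 29877 and 28023 counts in WT NPC 1, 2 and 3. As a share of the counts at named loci this was 0.0128%, 0.0438% and 0.220% in the KO NPCs and 0.0128%, 0.0407% and 0.0412% in the WT NPCs. The 2 libraries numbered 1 were thus the lowest and nearly equal, those numbered 2 were higher and nearly equal, and those numbered 3 were far apart. In CPM the sum in KO NPC 3 was 4.84 times that in WT NPC 3. For single genes the highest library was KO NPC 3 for 7 of the 9 and WT NPC 3 for *Mal* and *Mog*. Among all 19073 genes tested, KO NPC 3 was also the highest library for 34.9%. The lowest library was one numbered 1 for all 9 genes, with *Mog* at 0 in both KO NPC 1 and WT NPC 1.

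**Figure D2:**
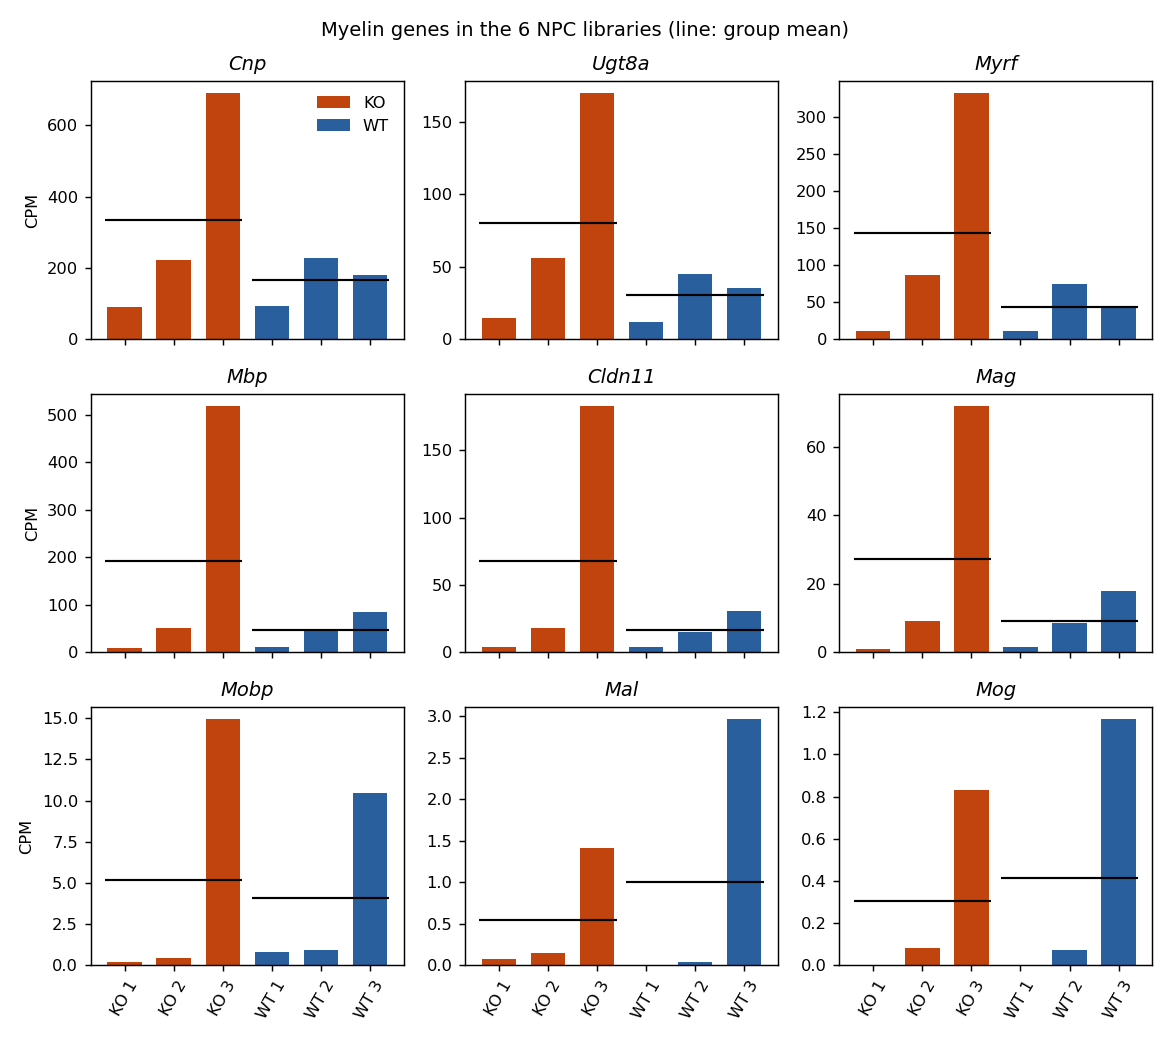
CPM of each of the 9 myelin genes (vertical axis, linear, its own scale in each panel) in the 3 KO (left, red) and 3 WT (right, blue) NPC libraries; bars are single libraries and the black line is the group mean. KO NPC 3 has the highest bar in 7 panels, WT NPC 3 in those of *Mal* and *Mog*, and the KO and WT bars overlap in all 9.

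*Cnp* encodes the cyclic nucleotide phosphodiesterase of non-compact myelin (ENSMUSG00000006782, chromosome 11, 100574904 to 100591729, plus strand). It was at 91.5, 224 and 690 CPM in KO NPC 1, 2 and 3, against 93.9, 227 and 181 CPM in WT NPC 1, 2 and 3. KO was at 0.975 and 0.985 times WT in the pairs numbered 1 and 2, while KO NPC 3 was 3.82 times WT NPC 3. Group means were 335 ± 314 CPM in the KO NPCs and 167 ± 67.7 CPM in the WT NPCs (SD, n = 3 each).

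*Ugt8a* encodes the galactosyltransferase that makes galactocerebroside, a main lipid of myelin (ENSMUSG00000032854, chromosome 3, 125865271 to 125938619, minus strand). Its levels were 14.98, 56.2 and 170 CPM in the KO NPCs, against 11.7, 45.2 and 35.2 CPM in the WT NPCs. KO was above WT within each of the 3 numbers, by 1.28, 1.24 and 4.82 times for numbers 1, 2 and 3. KO NPC 3 was again the highest, at 3.02 times the next library, KO NPC 2.

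*Myrf* encodes the membrane-tethered transcription factor that starts myelin gene expression (ENSMUSG00000036098, chromosome 19, 10208272 to 10240748, minus strand). It had 11.5, 86.8 and 331 CPM in the KO NPCs, against 11.3, 75.2 and 45.6 CPM in the WT NPCs. Its ratio of 7.27 between KO NPC 3 and WT NPC 3 was the largest of the 9 genes. Like *Cnp* and *Ugt8a*, it was lower in WT NPC 3 than in both libraries numbered 2, at 0.606 times the WT NPC 2 level.

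*Mbp* encodes myelin basic protein, which holds the inner faces of compact myelin together (ENSMUSG00000041607, chromosome 18, 82475146 to 82585637, plus strand). Levels of 8.42, 52.0 and 518 CPM in the KO NPCs stood against 11.1, 44.9 and 84.5 CPM in the WT NPCs. The KO NPC 3 level was 6.13 times that of WT NPC 3, where the second highest level was. The locus holds 16 transcripts in the table, and the known golli transcripts of this gene, which start upstream and occur in cells that make no myelin, cannot be told from those of myelin basic protein in its summed count.

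*Cldn11* encodes claudin 11, which forms the tight junctions between myelin layers (ENSMUSG00000037625, chromosome 3, 31149920 to 31164324, plus strand). It was at 3.71, 17.8 and 183 CPM in the KO NPCs, against 3.88, 15.3 and 31.0 CPM in the WT NPCs. KO NPC 3 exceeded WT NPC 3 by 5.90 times, close to the ratio for *Mbp*, and both genes were about as far above WT NPC 2 in WT NPC 3, by 2.02 times for *Cldn11* and 1.88 times for *Mbp*.

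*Mag* encodes myelin-associated glycoprotein, an adhesion molecule that faces the axon (ENSMUSG00000036634, chromosome 7, 30899176 to 30914873, minus strand). Counts were 82, 667 and 4234 in the KO NPCs, against 92, 606 and 1221 in the WT NPCs, or 0.989, 9.16 and 71.8 CPM in the KO NPCs and 1.46, 8.47 and 17.8 CPM in the WT NPCs. KO NPC 2 was at 9.27 times KO NPC 1, the largest such ratio among the 8 genes with counts in both. Its locus lies wholly within a merged locus on the same strand that names *Usf2*, *Hamp2*, *Gramd1a*, *Fxyd5* and *Mir7050*, so reads could be split between them. That locus had 10773 counts in KO NPC 3 and 12325 to 14466 in the other 5 libraries.

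*Mobp* encodes a small basic protein of compact myelin (ENSMUSG00000032517, chromosome 9, 120149707 to 120181484, plus strand). It had 16, 31 and 881 counts in the KO NPCs, against 51, 64 and 718 counts in the WT NPCs. In CPM this was 0.193, 0.426 and 14.9 in the KO NPCs and 0.808, 0.894 and 10.5 in the WT NPCs. Both libraries numbered 3 were high, and KO was the lower of the pair at numbers 1 and 2, at 0.239 and 0.476 times WT.

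*Mal* encodes a proteolipid that sorts membrane to myelin (ENSMUSG00000027375, chromosome 2, 127633226 to 127656695, minus strand). It had 6, 11 and 83 counts in the KO NPCs, against 0, 3 and 203 counts in the WT NPCs. *Mog* encodes a glycoprotein of the outermost myelin surface (ENSMUSG00000076439, chromosome 17, 37010743 to 37023398, minus strand). It had 0, 6 and 49 counts in the KO NPCs, against 0, 5 and 80 counts in the WT NPCs. Both genes were nearly confined to the 2 libraries numbered 3, with WT NPC 3 the higher, at 2.96 CPM of *Mal* and 1.17 CPM of *Mog* against 1.41 and 0.831 CPM in KO NPC 3. The 0 counts of *Mog* allow up to 3 counts, or 0.0362 CPM in KO NPC 1 and 0.0475 CPM in WT NPC 1, for counting error alone.

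Other loci overlap some of these genes on the opposite strand, and use of strand in counting was not given in the sources used here. *Dnajc7*, which overlaps *Cnp*, had 5609 to 7297 counts in the KO NPCs and 6088 to 6535 in the WT NPCs, with its lowest count in KO NPC 3, where *Cnp* was highest. *Tmem258*, a locus that contains *Myrf*, had 1984 to 3392 counts in the KO NPCs and 2850 to 3065 in the WT NPCs, again lowest in KO NPC 3. *Rpl21-ps8*, within *Mbp*, had at most 72 counts. For *Mobp* the overlapping *Gm38642* on its own strand had at most 11 counts, and for *Mog* the opposite-strand *Gm22388* had at most 3.

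By their level in WT NPC 3 relative to WT NPC 2 the genes fell in 3 sets, described after their values were seen. *Cnp*, *Ugt8a* and *Myrf* were lower in WT NPC 3, at 0.794, 0.778 and 0.606 times. *Mbp*, *Cldn11* and *Mag* were at 1.88, 2.02 and 2.11 times. *Mobp* and *Mog* were at 11.7 and 16.7 times, and *Mal* had 203 counts in WT NPC 3 and 3 in WT NPC 2. The KO pair gave a similar but not equal order: KO NPC 3 exceeded KO NPC 2 by 3.02 to 3.82 times for *Ugt8a*, *Cnp* and *Myrf*, by 7.84 to 10.2 times for *Mag*, *Mbp* and *Cldn11*, and by 35.1 times for *Mobp*, while *Mal* and *Mog* were at 9.32 and 10.1 times.

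Between genes, levels were compared per kilobase of exon length as the table gives it. In the WT NPCs *Cnp* was the highest, at 46.0 ± 18.6 CPM per kb (SD, n = 3), and stood above all the others in all 6 libraries. *Cldn11*, *Ugt8a*, *Mbp* and *Myrf* followed at means of 8.94, 6.77, 5.53 and 5.14 CPM per kb, each with an SD of at least 3.74, and these neighbours did not differ beyond their spread: *Cldn11* was above *Ugt8a* in 2 of 6 libraries and *Mbp* above *Myrf* in 2 of 6. *Mag* came next at 2.27 ± 2.02 CPM per kb and was below *Myrf* in all 6 libraries. *Mobp*, *Mal* and *Mog* averaged 0.593, 0.361 and 0.242 CPM per kb, with SDs larger than their means.

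The makeup of the signal differed between libraries, also between WT NPC 2 and WT NPC 3, whose summed levels were close at 417 and 409 CPM. *Cnp* made up 76.0%, 60.3% and 42.6% of the summed CPM per kb in KO NPC 1, 2 and 3, against 76.9%, 64.4% and 51.2% in WT NPC 1, 2 and 3. *Mbp* made up 3.01%, 6.01% and 13.7% in the KO NPCs and 3.89%, 5.46% and 10.3% in the WT NPCs. *Cldn11* made up 6.01%, 9.33% and 21.9% in the KO NPCs and 6.18%, 8.44% and 17.1% in the WT NPCs. In both genotypes *Mbp* and *Cldn11* thus had their lowest share in the library numbered 1 and their highest in that numbered 3, and for these 3 shares same-numbered KO and WT libraries were closer to each other than to any other library of their own genotype. The same did not hold for the shares of *Myrf*, *Ugt8a*, *Mobp*, *Mal* and *Mog*. *Myrf* made up 8.69% in KO NPC 3, nearer to 9.92% in KO NPC 2 than to 5.49% in WT NPC 3. Shares within a library also depend on each other. The per kilobase ratio of *Mbp* to *Cnp* was 0.0395, 0.0997 and 0.323 in the KO NPCs, against 0.0506, 0.0847 and 0.201 in the WT NPCs. For *Ugt8a* to *Cnp* the ratio varied less, between 0.131 and 0.201 in the KO NPCs and between 0.100 and 0.160 in the WT NPCs.

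**Figure D3:**
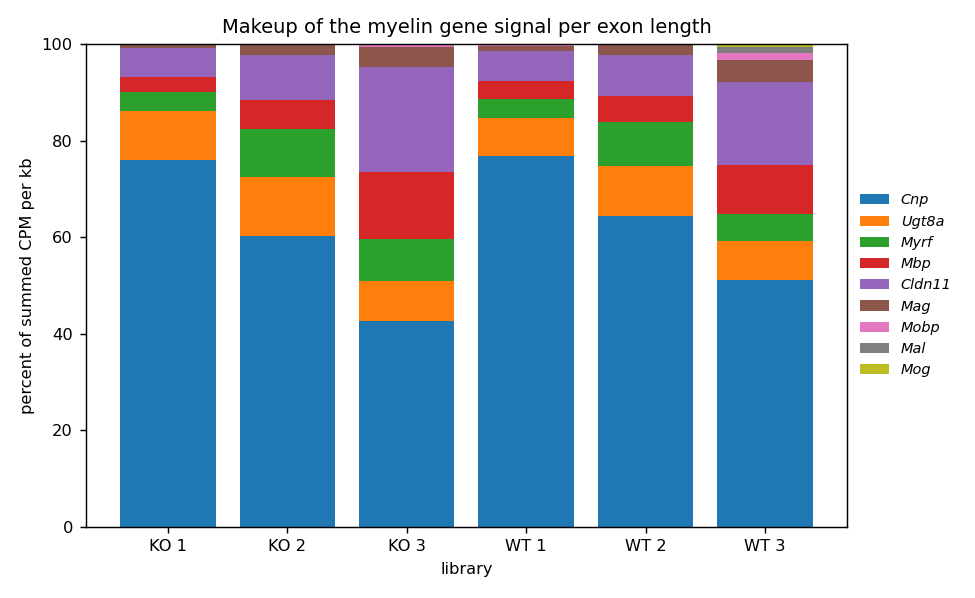
Share of each myelin gene (colours) in the summed CPM per kilobase of the 9 genes (vertical axis, percent) in the 3 KO (left) and 3 WT (right) NPC libraries. The *Cnp* share is 42.6% in KO NPC 3 and 51.2% in WT NPC 3, and 60.3% to 76.9% in the other 4 libraries.

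The log2 fold changes, KO over WT, of the 8 genes that passed the filter ranged between -0.89 and 2.04, with standard errors between 0.74 and 1.98. *Mbp* had 2.04 (standard error 1.44), *Cldn11* 2.03 (1.41), *Myrf* 1.70 (1.18) and *Mag* 1.56 (1.48). *Ugt8a* had 1.39 (0.90), *Cnp* 1.00 (0.74), *Mobp* 0.35 (1.74) and *Mal* -0.89 (1.98). The median was 1.47, beside -0.01 over all genes tested. The quasi-likelihood test of edgeR called 0 of 8 at an adjusted p under 0.05, beside 0% of the 19073 genes tested, and 0 of 8 were at an unadjusted p under 0.05, beside 1.61% (0.949% higher in KO). By edgeR's likelihood ratio test 0 of 8 were called beside 0.0891% of all genes, and by DESeq2 0 of 8 beside 0.189% of the 18470 genes with an adjusted p. With the replicate number as a block, the quasi-likelihood test called 0 of 8 beside 0% (0 of 8 beside 2.05% at an unadjusted p under 0.05) and the likelihood ratio test 0 of 8 beside 0.199%. The KO and WT libraries overlapped for all 9 genes, whereas they did not overlap for 6.02% of the genes tested. Because the genes were chosen with these counts known, nothing is read from these shares.

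KO NPC 3 set the sign of 5 of these 8 values. Without it the log2 fold change turned negative for *Mbp* (-0.63), *Cldn11* (-0.63), *Mag* (-0.87), *Mobp* (-3.71) and *Cnp* (-0.09). *Mal* stayed negative, at -3.15, and *Myrf* and *Ugt8a* stayed positive, at 0.16 and 0.21. The median then was -0.63, beside -0.01 over all genes. WT NPC 3 then had no partner, and without both libraries numbered 3 the values of *Mbp*, *Cldn11*, *Myrf*, *Mag*, *Ugt8a* and *Cnp* lay between -0.03 and 0.31, with *Mobp* at -1.47 and no value for *Mal*, and the median was 0.10. Within the numbers, the median log2 ratio of KO to WT was -0.06 for number 1, 0.21 for number 2 and 2.14 for number 3. With the replicate number as a block the median was 0.72, and *Mobp* and *Mal* changed sign, to -0.81 and 0.68.

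**Figure D4:**
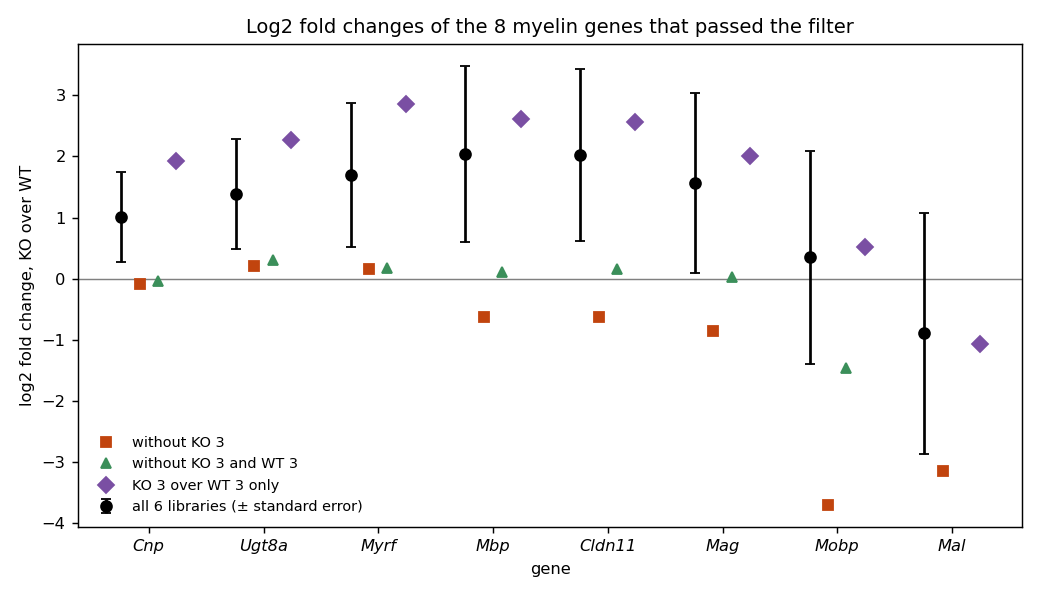
Log2 fold change, KO over WT (vertical axis), of the 8 myelin genes that passed the filter, from all 6 libraries (black circles, bars are the standard error), without KO NPC 3 (squares), without KO NPC 3 and WT NPC 3 (triangles), and as the log2 ratio of KO NPC 3 to WT NPC 3 (diamonds). Squares lie between -3.71 and 0.21 and triangles between -1.47 and 0.31, and the triangle for *Mal* is missing because the fit gave no value.

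The genes whose pattern over the 6 libraries was most like that of the myelin genes were ranked among 14342 genes with a mean of at least 1 CPM, by the root mean square difference of centred log2 CPM. The closest was *Plch2*, at 0.26, with 0.133, 0.618 and 5.85 CPM in the KO NPCs against 0.222, 0.908 and 1.58 CPM in the WT NPCs. Next came the merged *Srcin1* and *Gm11611* locus, *Minar1*, a merged locus of 8 *Serpina3* genes and *Tmem108*, then the merged *Ackr1* and *Cadm3* locus, *Cbln2*, *Sntg1*, *Tmem151a* and *Kndc1*, between 0.27 and 0.40. Among the myelin genes themselves the distance to their own mean profile was smallest for *Cldn11* (0.28) and *Mbp* (0.35) and largest for *Mal* (1.35).

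Of 16 other genes of the sheath and node, 14 were tested, 13 with a log2 fold change above 0, and their median was 0.70 (0.04 without KO NPC 3). *Nfasc*, whose protein neurofascin ties the sheath to the axon next to the node, was at 22.9, 124 and 1140 CPM in the KO NPCs, against 21.3, 112 and 112 CPM in the WT NPCs. KO NPC 3 was far above the rest, as for *Mbp*, while WT NPC 3 and WT NPC 2 were level. *Gpm6b*, which encodes a membrane glycoprotein widely expressed in neural cells, was at 442 to 672 CPM in the KO NPCs and 469 to 517 CPM in the WT NPCs. *Cd9*, a tetraspanin gene, was lowest in KO NPC 3, at 41.5 CPM, with the other 5 libraries at 77.8 to 97.7 CPM.

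Of 11 genes of myelin lipids and support, all tested, 4 had higher fitted levels in KO and 7 had lower ones, and the median log2 fold change was -0.02 (0.04 without KO NPC 3). *Gal3st1* and *Fa2h*, which serve the making of myelin galactolipids, followed *Ugt8a*. *Gal3st1*, the sulfotransferase that turns galactocerebroside into sulfatide, was at 3.73, 20.3 and 44.6 CPM in the KO NPCs, against 2.19, 13.6 and 7.68 CPM in the WT NPCs. *Fa2h*, the fatty acid hydroxylase of these lipids, was at 1.47, 9.11 and 20.1 CPM in the KO NPCs, against 1.05, 8.15 and 6.54 CPM in the WT NPCs. *Hmgcs1*, of cholesterol synthesis, and *Car2*, a carbonic anhydrase gene, went the other way, with KO NPC 3 the lowest library at 971 and 13.3 CPM, and the other 5 libraries at 1279.8 to 1984 CPM and 97.9 to 230 CPM. *Cers2*, a ceramide synthase gene, was also lowest in KO NPC 3, at 65.9 CPM, with the other 5 libraries at 85.1 to 95.1 CPM.

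Of 20 genes of oligodendrocyte maturation and signalling, 17 were tested, 15 with a log2 fold change above 0, and their median was 0.79 (-0.03 without KO NPC 3). *Enpp6*, a marker of newly formed oligodendrocytes, was at 3.86, 40.6 and 320 CPM in the KO NPCs, against 3.49, 40.5 and 35.7 CPM in the WT NPCs. *Bcas1*, another marker of that stage, was at 83.3, 154 and 556 CPM in the KO NPCs, against 108, 117 and 109 CPM in the WT NPCs. *Gpr17*, a receptor gene of committed precursors, was at 107, 594 and 912 CPM in the KO NPCs, against 74.2, 401 and 199 CPM in the WT NPCs. These 3 markers were thus high in KO NPC 3 and, unlike *Mbp*, not higher in WT NPC 3 than in WT NPC 2. *Anln*, which serves cell division as well as myelin, was at 6.23 CPM in KO NPC 3 and 135 to 158 CPM in the other 5 libraries.

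Among 12 transcription factor genes of the lineage, 11 were tested, 7 with a log2 fold change above 0, and their median was 0.16 (0.07 without KO NPC 3). *Sox10*, which drives the lineage together with *Myrf*, was at 27.3, 186 and 240 CPM in the KO NPCs, against 25.9, 168 and 46.9 CPM in the WT NPCs. Its libraries ranked as those of *Myrf* did, with less distance between KO NPC 3 and KO NPC 2. *Olig1* and *Olig2*, which mark the whole lineage from the progenitor on, were lowest in KO NPC 3, at 655 and 607 CPM, against 1176 to 1352 and 940 to 1097 CPM in the other 5 libraries. Of 7 genes for inhibitors of maturation, all tested, 6 had a log2 fold change above 0, with a median of 0.36 (-0.06 without KO NPC 3). *Id4*, an inhibitor of helix-loop-helix factors, was at 8.48, 23.7 and 152 CPM in the KO NPCs, against 7.004, 26.7 and 16.9 CPM in the WT NPCs, and *Hes1*, a Notch target, was lowest in KO NPC 3, at 11.7 CPM.

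In these 5 lists the quasi-likelihood test of edgeR called 0 genes in either direction, 0 were at an unadjusted p under 0.05, and 0 were called by the likelihood ratio test or DESeq2, with the shares over all genes as given above.

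**Figure D5:**
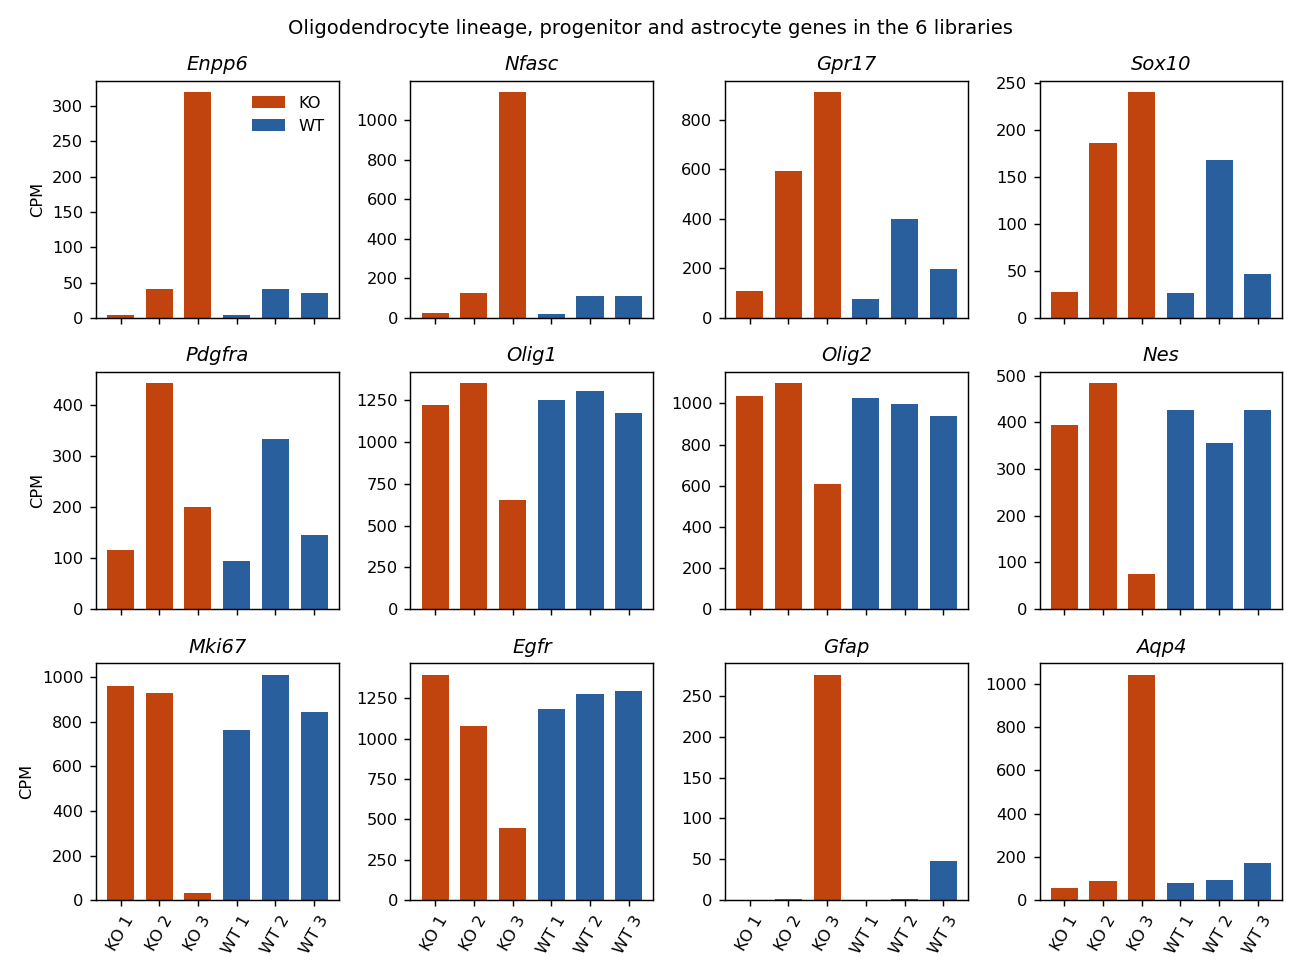
CPM (vertical axis, linear, its own scale in each panel) of 12 genes of the oligodendrocyte lineage, progenitors and astrocytes in the 3 KO (left, red) and 3 WT (right, blue) NPC libraries; bars are single libraries. KO NPC 3 has the highest bar for *Enpp6*, *Nfasc*, *Gpr17*, *Sox10*, *Gfap* and *Aqp4* and the lowest for *Olig1*, *Olig2*, *Nes*, *Mki67* and *Egfr*.

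Some markers of other neural cells also differed in KO NPC 3, and others did not. Of 10 astrocyte markers, 9 were tested and 0 called, and their summed level was 2233 to 3856 CPM in the KO NPCs and 2088 to 2829 CPM in the WT NPCs, with a median log2 fold change of 0.33 (-0.09 without KO NPC 3). *Gfap*, the astrocyte filament gene, was at 0.157, 1.54 and 276 CPM in the KO NPCs, against 0.396, 1.31 and 47.9 CPM in the WT NPCs, and *Aqp4* at 55.7, 87.8 and 1041 CPM in the KO NPCs, against 78.5, 92.6 and 171 CPM in the WT NPCs. In contrast *Slc1a3*, a glutamate transporter gene of astrocytes and radial glia, was lowest in KO NPC 3, at 778 CPM, with the other 5 libraries at 926 to 1117 CPM, and *Slc1a2*, *Slc4a4* and *Aldh1l1* were in KO NPC 3 within the range of the other 5 libraries. For 14 neural progenitor markers, all tested and 0 called, the sum was 3780 to 6450 CPM in the KO NPCs and 6035 to 6840 CPM in the WT NPCs, lowest in KO NPC 3, and the median log2 fold change -0.14 (-0.08 without KO NPC 3). For 14 neuron markers, all tested and 0 called, it was 822 to 1398 CPM in the KO NPCs and 846 to 1491 CPM in the WT NPCs, highest in WT NPC 1, and the median log2 fold change was 0.14 (-0.61 without KO NPC 3). *Dcx*, of young neurons, was high in both libraries numbered 3, at 287 CPM in KO NPC 3 and 232 CPM in WT NPC 3, and at most 64.1 CPM elsewhere. *Stmn2* and *Slc32a1*, also of neurons, were lower in KO NPC 3 than in WT NPC 3, at 1.46 and 2.93 CPM against 5.26 and 7.62 CPM. *Map2*, the largest part of the neuron sum in all libraries, was highest in WT NPC 1, at 1430 CPM. Of 10 oligodendrocyte precursor markers, all tested and 0 called, the sum was 4859 to 6838 CPM in the KO NPCs and 4630 to 6119 CPM in the WT NPCs, with KO NPC 3 inside the range of the others, and the median log2 fold change was 0.39 (0.31 without KO NPC 3). The single markers were not alike: 5 of the 10 were highest in KO NPC 3, while *Cspg4*, *Olig1*, *Olig2* and *Ptprz1* were lowest there. *Ptprz1* was the largest part of the sum, at 1938 CPM in KO NPC 3. *Pdgfra*, the defining receptor of these precursors, counted in a merged locus with *Mir7025*, was highest in the libraries numbered 2, at 443 CPM in KO NPC 2 and 334 CPM in WT NPC 2. The part of these cells in the myelin gene levels was not tested.

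Defining markers of cells outside the neural lineage were mostly low. Of 10 Schwann cell and neural crest markers, 8 were tested and 0 called, and their sum of 116 to 1220 CPM in the KO NPCs and 152 to 326 CPM in the WT NPCs was highest in KO NPC 3, with a median log2 fold change of -0.06 (-0.03 without KO NPC 3). *Foxd3*, of neural crest, was at 0 in all libraries but KO NPC 3, with 0.0509 CPM. Of 10 microglia and macrophage markers, 2 were tested and 0 called, with a sum of 4.19 to 4.33 CPM in the KO NPCs and 4.83 to 4.86 CPM in the WT NPCs, and *Aif1* was at 0 in all libraries but KO NPC 3; the median log2 fold change of the 2 was -0.44 (-0.24 without KO NPC 3). Of 10 endothelial and mural markers, 8 were tested and 0 called, with a sum of 135 to 257 CPM in the KO NPCs and 108 to 250 CPM in the WT NPCs that was, outside KO NPC 3, mostly *Cspg4*, which oligodendrocyte precursors share, and *Pecam1* was at 0.426 to 0.560 CPM in the KO NPCs and 0.301 to 0.599 CPM in the WT NPCs. Their median log2 fold change was 0.15 (-0.43 without KO NPC 3). Of 10 fibroblast and meninges markers, 7 were tested and 0 called, with a sum of 80.5 to 607 CPM in the KO NPCs and 324 to 524 CPM in the WT NPCs that was, outside KO NPC 3, mostly *Igfbp2*, and *Col1a1* was at 0.831 to 2.17 CPM in the KO NPCs and 1.57 to 4.88 CPM in the WT NPCs. The median for the fibroblast and meninges list was -0.39 (-0.32 without KO NPC 3). *Pdgfrb*, a receptor gene of mural cells and fibroblasts on both lists, was at 58.5 CPM in KO NPC 3 and at most 1.59 CPM in the other 5 libraries. Over the 8 marker lists 0 genes were called by any of the edgeR or DESeq2 tests. Only *Kdr*, of endothelium, was at an unadjusted p under 0.05 by quasi-likelihood, beside 1.61% of all genes tested. Its log2 fold change was 1.51, against -1.41 for *Flt1* and -1.52 for *Tek*, also of endothelium, and the endothelial and mural list had 5 genes above 0 and 3 below.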

How the data were processed

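RNA-seq was done on 3 KO and 3 WT NPC libraries, rRNA-depleted and strand-specific. The authors' deposited table holds whole-number counts for the loci, raw and unfiltered, beside log2 CPM values and log2 values relative to the *Rn7sk* count, which the authors computed and which were not used. By the submitters' processing notes the tools were edgeR, Picard, STAR, StringTie and Trimmomatic, with build GRCm38; the versions, the counting step and its use of strand are not given in the sources used here. Loci of the StringTie assembly can name several genes (1707 of 59699 do).

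For each gene, counts were summed over its loci (53103 named loci, 53060 genes); the 6596 loci without a name (1.31% to 4.89% of counts) were left out. edgeR 4.0.16 in R 4.3.3 filtered genes with filterByExpr (minimum count 10, minimum total 15), scaled libraries by TMM and compared KO with WT by quasi-likelihood, with Benjamini-Hochberg adjustment over 19073 genes and a threshold of 0.05. A standard error is the log2 fold change divided by the root of the F statistic. Tested on simulated counts, the fit recovered all planted changes at low dispersion and a minority of them at the dispersion of these libraries. DESeq2 1.42.0 was an alternative; others were the likelihood ratio test, *Rn7sk* or total count scaling, no filter, the replicate block, merged loci left out, each library left out and both libraries numbered 3 left out. Ratios within numbers and a CPM filter (1 or more in 3 or more libraries) were added after seeing the data. CPM are on TMM-scaled sizes, and likeness used log2 CPM with a prior count of 2.

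The myelin genes, the 5 pathway lists and the 8 marker lists were chosen with earlier results of these data known. Named were all myelin genes, up to 6 pathway genes with the highest and up to 4 with the lowest fold change per list, up to 4 markers per list by mean CPM and the first 2 listed, and the 10 most alike genes; other names were chosen after their values were seen. The study describes replicate pairs and the sample titles number the libraries. Deviations from the group means over all genes correlated at 0.413, 0.169 and 0.195 in the 3 same-numbered pairs and at 0.0579 or less in all others. Centring on the group means itself lowers the other correlations where the same-numbered ones are positive, so these values do not settle the pairing. The main fit had no block, and the block was an alternative. The floors (3 counts for a count of 0) cover counting error only, whereas the SDs and standard errors include differences between libraries. Promoter windows came from RefSeq and were searched in Python 3 with pandas. Some genes of the lists are not reported here by name.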

Additional observations from a re-analysis of the deposited data

How the results depend on the processing

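Leaving out KO NPC 3 turned the median log2 fold change of the myelin genes to -0.63, against 1.47 with all libraries, and over the leave-one-out fits it ranged between -0.63 and 2.52, with 0 genes called in the whole table in each. Without WT NPC 3, *Mobp* was at 2.59 and *Mal* at 4.51. With the replicate block the median was 0.72, and 0.81 with the likelihood ratio test, and 0 genes were called with the block by quasi-likelihood. *Mobp* and *Mal* changed sign under the block, to -0.81 and 0.68, and were at -0.83 and 0.98 with the likelihood ratio test; no call on a myelin gene changed. The median was 1.06 with *Rn7sk* scaling, which shifted the median of all genes to -0.26, 1.61 with total counts, 1.51 with DESeq2, 1.31 without a filter and 1.75 with the CPM filter. These medians are not all over the same genes: 9 entered without a filter, and 6 with the CPM filter, which dropped *Mobp* and *Mal*. The leave-one-out medians were over 8 genes without KO NPC 3 or WT NPC 3 and over 9 without another library.

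The number of genes called over the whole table, 0 by quasi-likelihood, was 4 with *Rn7sk* scaling, 5 without a filter, 17 by the likelihood ratio test, 35 by DESeq2 and 38 by the likelihood ratio test with the block; the cause was not tested. With 3 libraries a group, of which KO NPC 3 stands apart, precision is limited to standard errors of 0.74 to 1.98 on the log2 scale. For *Mal* and *Mog*, a handful of counts in 4 libraries limits any ratio.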
